A study of Mus musculus with 4 samples.

Results

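The expression of 10 genes of dietary fat absorption was examined on 4 Illumina bead arrays of mouse intestinal epithelium. They were chosen by symbol: the apolipoprotein genes Apob, Apoa1, Apoa4 and Apoc3, the lipid transfer gene Mttp, the fatty acid uptake gene Cd36, the fatty acid binding genes Fabp1 and Fabp2, and the re-esterification genes Mogat2 and Dgat1. The platform annotation gave 9 of the 10 genes a probe, 10 probes of 25697 in all; Apob had none there and was not analysed here. Of these, 6 genes (Apoa1, Apoa4, Apoc3, Mttp, Mogat2 and Dgat1) were detected on every array and were tested among 8442 genes. Cd36, Fabp1 and Fabp2 were detected on no array.

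The Ifnar1-/- group and the Ifnar1+/+ group had 2 arrays each, assigned by sample title and genotype label, since the protocol text writes Ifnar1+/+ for both crosses. Ifnar1 encodes a chain of the type I interferon receptor, and the series title concerns what these interferons do in gut epithelium. Mice of both groups were C57BL/6 and carried floxed Csnk1a1 with a tamoxifen-inducible Cre recombinase driven by the villin promoter, which is active in gut epithelium, so the wild-type group is wild type for Ifnar1 alone. Csnk1a1 encodes casein kinase 1 alpha, which marks beta-catenin for breakdown. Every mouse was given tamoxifen at 120 mg/kg per injection, and 5 days after the last one its epithelial cells were freed with 5 mM EDTA. The labels give no age at sampling or sex and do not say whether arrays of the same group stem from different mice. The p-values therefore reflect variation among these arrays, which could be purely technical.

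The Ifnar1 and Csnk1a1 probes were not well above background on any array (smallest detection p 0.301 and 0.244) and therefore check no genotype. The label gives colon as tissue, whereas the protocol names the mid small intestine. Of the 4 colon markers that have a probe, 0 were above background on all arrays, against 4 of 5 distal and 3 of 4 proximal small intestine markers and 13 of 16 absorptive enterocyte markers. Ifnar1-/- array 1 stood apart from array 2 of its group: 7.38% of genes differed between them by over 1 log2 unit, against 1.69% between the Ifnar1+/+ arrays. All arrays shared a chip, and position on the chip followed the group, so the effects of position and genotype cannot be told apart.

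Absorptive enterocytes take up fatty acids and monoacylglycerol released from dietary fat. Fatty acids are carried and activated in the cell, Mogat2 and Dgat1 rebuild triacylglycerol in the endoplasmic reticulum, and microsomal triglyceride transfer protein, encoded by Mttp, loads it onto apolipoprotein B. The resulting chylomicron, which also carries apolipoproteins A-I, A-IV and C-III, leaves through the secretory pathway for the lymph.

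Of the 6 measured genes, 5 had a lower mean in the Ifnar1-/- group and 1, Apoa4, had a higher mean. The median difference was -0.67 on the log2 scale, against 0.03 over all genes tested, of which 47.0% had a lower mean. No measured gene passed limma's test at an adjusted p under 0.05, nor did any of the 8442 genes (0%). At an unadjusted p under 0.05, 1 of the 6 genes was lower, against 5.27% of all genes. The lower means rested largely on 1 array: without Ifnar1-/- array 1, 3 of the 6 genes had a lower mean and the median was -0.038. In RNA from a bulk preparation, fewer enterocytes and less RNA per enterocyte cannot be told apart.

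**Figure D1:**
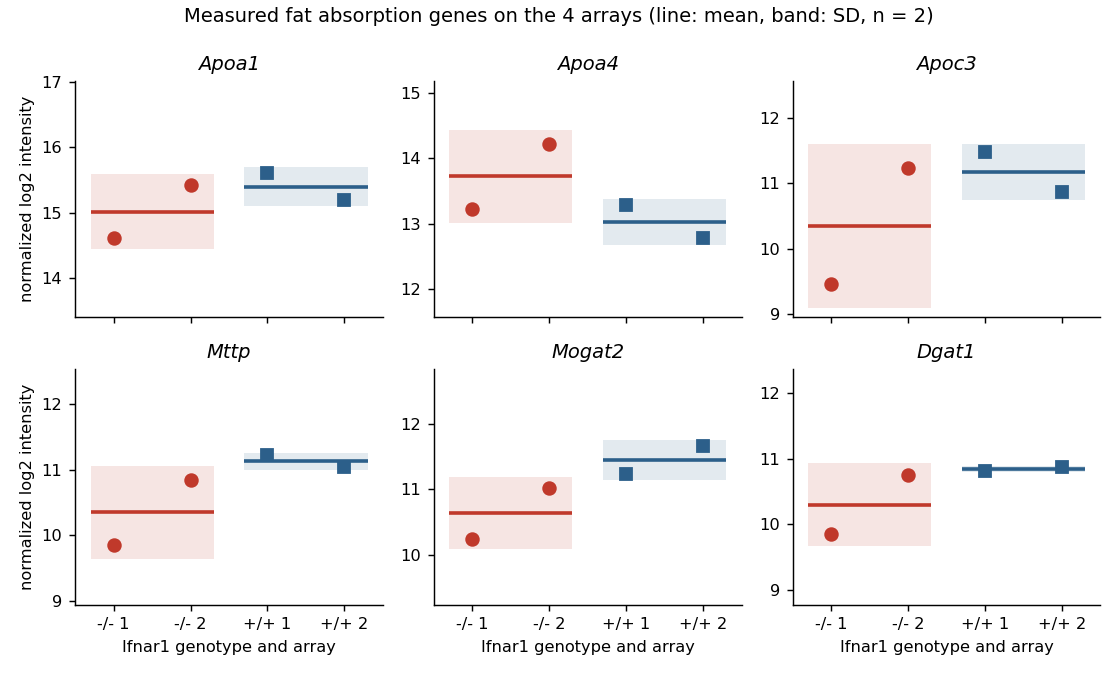
Normalized log2 intensity of each measured gene on Ifnar1-/- arrays 1 and 2 (circles) and Ifnar1+/+ arrays 1 and 2 (squares), with each group's mean (line) and SD (band, n = 2); every panel spans the same range. Ifnar1-/- array 1 has the lowest value of every gene but Apoa4, whose highest value is on Ifnar1-/- array 2.

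Apoa1 encodes the main protein of high-density lipoprotein and is also made by enterocytes. Its normalized log2 intensity was 14.61 and 15.42 for Ifnar1-/-, against 15.61 and 15.19 for Ifnar1+/+. Only Ifnar1-/- array 1 lay below both Ifnar1+/+ arrays, and the groups overlapped. The difference was -0.38 ± 0.34 (log2, SE, n = 2 per group; limma, adjusted p = 0.712), with a 95% interval of -1.19 to 0.42. It was 0.026 without Ifnar1-/- array 1. The raw signals, 27185.6 and 41178.8 for Ifnar1-/- and 48393.1 and 35794.8 for Ifnar1+/+, lay near the top of the range of the arrays, whose brightest probes reached 68190.2, 48432.5, 56687.7 and 57970.8; whether the signal was saturated was not tested.

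Apoa4 encodes a chylomicron protein that is secreted in greater amount after a fatty meal. Its log2 intensity was 13.22 and 14.22 for Ifnar1-/-, against 13.28 and 12.78 for Ifnar1+/+. Ifnar1-/- array 2 was the highest of the 4 and Ifnar1-/- array 1 lay between the Ifnar1+/+ arrays. The difference was 0.69 ± 0.38 (SE, n = 2 per group; limma, adjusted p = 0.578), a ratio of 1.61, with a 95% interval of -0.22 to 1.60. Leaving out Ifnar1-/- array 1 gave 1.19, and leaving out Ifnar1-/- array 2 gave 0.19.

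Apoc3 encodes an inhibitor of lipoprotein lipase that slows the clearance of triglyceride-rich particles. Its log2 intensity was 9.46 and 11.23 for Ifnar1-/-, against 11.47 and 10.87 for Ifnar1+/+. It had the widest spread of the 6 genes within the Ifnar1-/- group (SD 1.25, n = 2), and the groups overlapped. The difference was -0.83 ± 0.56 (SE; limma, adjusted p = 0.630), with a 95% interval of -2.17 to 0.51. Leaving out Ifnar1-/- array 1 gave 0.054, and leaving out Ifnar1-/- array 2 gave -1.71.

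Apoa1, Apoc3 and Apoa4 are direct neighbours, in that order, on mouse chromosome 9 in the RefSeq annotation (GRCm38.p6). The stretches before the annotated starts of Apoa1 and Apoa4 are shown because the group means of these neighbours differed in opposite directions, and that of Mttp because its groups did not overlap. Each is the 250 bases before the start, 5′ to 3′ on the strand of the gene, from RefSeq on GRCm38.p6. They are chr9:46228380-46228629 (plus strand) for Apoa1, chr9:46240594-46240843 (plus strand) for Apoa4 and chr3:138143419-138143668 (minus strand) for Mttp. Their content of G and C was 58.0%, 57.6% and 61.2%.
Apoa1: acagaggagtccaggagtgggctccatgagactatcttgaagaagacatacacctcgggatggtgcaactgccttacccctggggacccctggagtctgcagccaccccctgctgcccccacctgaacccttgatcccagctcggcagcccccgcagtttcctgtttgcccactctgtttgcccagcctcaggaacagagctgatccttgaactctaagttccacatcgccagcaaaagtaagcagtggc
Apoa4: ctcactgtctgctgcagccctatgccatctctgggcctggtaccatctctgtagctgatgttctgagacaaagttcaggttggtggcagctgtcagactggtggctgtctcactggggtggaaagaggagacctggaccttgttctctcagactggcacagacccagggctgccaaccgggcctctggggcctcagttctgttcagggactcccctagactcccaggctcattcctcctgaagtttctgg
Mttp: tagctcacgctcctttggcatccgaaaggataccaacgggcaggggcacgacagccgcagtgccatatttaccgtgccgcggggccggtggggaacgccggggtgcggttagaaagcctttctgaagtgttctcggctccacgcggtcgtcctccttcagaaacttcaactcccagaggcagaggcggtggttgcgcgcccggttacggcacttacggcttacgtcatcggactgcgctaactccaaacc

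A search of both strands of these stretches and of the 50 bases that follow found none of 5 letter patterns, and capitals, which would mark a match, are therefore absent. The patterns were CAAAGTCCA for HNF4, AGGTCA for the half-site of nuclear receptors, AGATAA for GATA factors, GAAANNGAA for the core of the interferon response element and TATAAA for the TATA box. Of 32851 RefSeq windows of 300 bases, 0.475% held the first, 16.3% the second, 11.2% the third, 8.56% the fourth and 13.6% the fifth. Absence of these letters from the windows says nothing about the factors themselves. Windows were found for 7 of the 10 genes, 3 of them measured.

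Mttp, the transfer protein gene needed for chylomicron assembly, was lower on both Ifnar1-/- arrays. Its log2 intensity was 9.85 and 10.85 for Ifnar1-/-, against 11.22 and 11.04 for Ifnar1+/+. The groups did not overlap, although Ifnar1-/- array 2 lay close below. The difference was -0.78 ± 0.36 (SE, n = 2 per group; limma, adjusted p = 0.533), or 1.72-fold lower, and the 95% interval ran from -1.63 to 0.07. Leaving out Ifnar1-/- array 1 gave -0.28, and leaving out Ifnar1-/- array 2 gave -1.28.

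Mogat2 encodes the monoacylglycerol acyltransferase that starts triacylglycerol rebuilding in enterocytes. Its brighter probe had log2 intensities of 10.25 and 11.02 for Ifnar1-/-, against 11.22 and 11.65 for Ifnar1+/+. The groups did not overlap, and Mogat2 was the single measured gene with an unadjusted p under 0.05. The difference was -0.81 ± 0.33 (SE, n = 2 per group; limma, adjusted p = 0.523), or 1.75-fold lower, with a 95% interval of -1.59 to -0.02. It was -0.42 without Ifnar1-/- array 1. The dimmer probe, at 7.37 and 8.29 on the Ifnar1-/- arrays against 9.19 and 8.95 for Ifnar1+/+, also gave groups that did not overlap, with a difference of -1.24.

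Dgat1 encodes the diacylglycerol acyltransferase that completes triacylglycerol. Its log2 intensity was 9.85 and 10.74 for Ifnar1-/-, against 10.81 and 10.88 for Ifnar1+/+. The groups did not overlap, but Ifnar1-/- array 2 lay just under the Ifnar1+/+ arrays. The difference was -0.55 ± 0.33 (SE; limma, adjusted p = 0.601), with a 95% interval of -1.34 to 0.24. It was -0.10 without Ifnar1-/- array 1. Groups that did not overlap, with lower Ifnar1-/- values, were thus seen for 3 of the 6 genes, against 19.5% of all genes tested.

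The probes of the uptake and binding genes were at background in both groups. Cd36 encodes a membrane protein that binds long-chain fatty acids. Its raw signal was 141.2 and 124.6 for Ifnar1-/-, against 126.9 and 128.9 for Ifnar1+/+, with detection p-values of at least 0.442. Fabp1 and Fabp2 encode the liver-type and intestinal-type fatty acid binding proteins, which are abundant in enterocytes of the small intestine. The Fabp1 probe gave 133.0 and 132.1 for Ifnar1-/-, against 128.9 and 139.4 for Ifnar1+/+. The Fabp2 probe gave 129.3 and 123.6 for Ifnar1-/-, against 123.9 and 131.6 for Ifnar1+/+. Their smallest detection p-values were 0.185 and 0.425. Each gene had a single probe, a probe at background gives at most a bound, and no fold is given. Whether these probes report their transcripts could not be checked without probe sequences. Their low signals are thus not read as absence of the transcripts.

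Apoa4 was set against each of the other 5 measured genes within arrays, a comparison chosen after the values were seen. This removes what an array does to both genes alike, and only the change between arrays can be read, since probes differ in brightness. The log2 ratio of Apoa4 to its neighbour Apoa1 was -1.39 and -1.20 for Ifnar1-/-, against -2.33 and -2.41 for Ifnar1+/+. Both Ifnar1-/- arrays were higher, by a mean of 1.07. The ratio to Mttp was 3.38 and 3.37 for Ifnar1-/-, against 2.06 and 1.75 for Ifnar1+/+. The mean shift was 1.47 against Mttp, 1.52 against Apoc3, 1.50 against Mogat2 and 1.24 against Dgat1. All of these ratios share the same Apoa4 values, and Apoa4 was picked as the gene with a higher mean, so they amount to little more than a single observation and are given as a description. With 2 arrays per group an exact two-sided permutation test cannot go below 0.33.

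**Figure D2:**
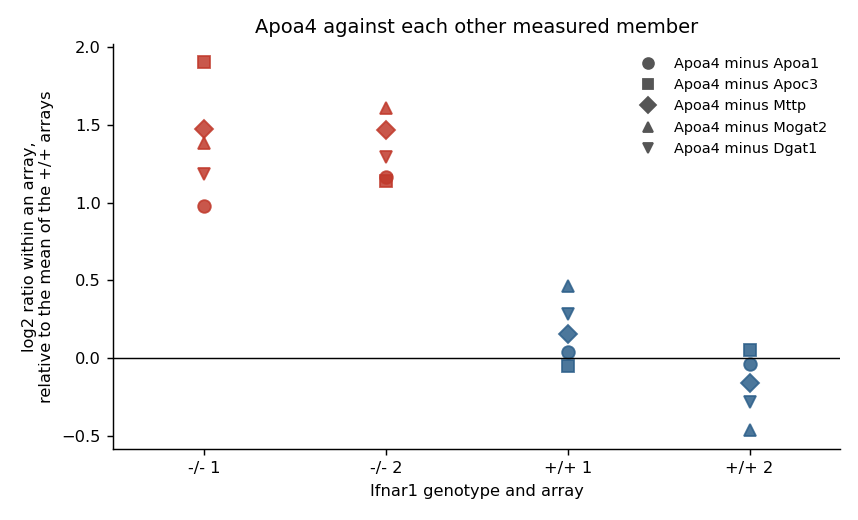
Log2 ratio of Apoa4 to each of the other 5 measured genes within each array, less the mean of that ratio on the Ifnar1+/+ arrays; each symbol is a gene pair. All ratios share the same Apoa4 values, and each lies higher on both Ifnar1-/- arrays than on either Ifnar1+/+ array, with mean shifts from 1.07 (Apoa1) to 1.52 (Apoc3).

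Other genes of fat absorption were taken from a list of 75, of which 59 were tested. A lower mean in the Ifnar1-/- group was found for 46 and a higher mean for 13, with a median difference of -0.30. At an unadjusted p under 0.05, 12 of the 59 (20.3%) were lower, against 5.27% of all genes, and 0 were higher, against 4.25% of all genes; 0 passed adjustment over all genes. The count of 12 rose without Ifnar1-/- array 2 and fell without either Ifnar1+/+ array, and the count over all genes moved likewise. Without Ifnar1-/- array 1 both counts changed little. Such fits have a lone array in 1 group, so these moves are not read as results about this list. Lower groups that did not overlap were found for 28 (47.5%), against 19.5% of all genes. Without Ifnar1-/- array 1, 39 of 59 had a lower mean, with a median of -0.20. The genes named from these lists kept their sign with each array left out, but most differences shrank by more than 1.5 times without Ifnar1-/- array 1, and those values are given with the genes.

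Of 5 tested genes of fatty acid uptake and sterol entry, 4 had a lower mean. Slc27a4, a fatty acid transport protein gene, had log2 intensities of 8.50 and 9.63 for Ifnar1-/-, against 10.43 and 10.44 for Ifnar1+/+. It differed by -1.37 ± 0.38 (SE; limma, adjusted p = 0.492). Npc1l1, the transporter gene through which dietary cholesterol enters, lay at 9.42 and 10.81 for Ifnar1-/-, against 11.38 and 11.55 for Ifnar1+/+. Abcg5, part of a pump that returns sterols to the lumen, differed by -0.70 ± 0.28. Without Ifnar1-/- array 1 the differences were -0.81 for Slc27a4, -0.65 for Npc1l1 and -0.38 for Abcg5. In each of these 3 genes both Ifnar1-/- arrays were lower than both Ifnar1+/+ arrays. Slc27a2, another transport protein gene, had a difference of 0.44 ± 0.27 and is named after its values were seen, as the exception.

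Genes of fatty acid activation and binding had a median difference of -0.29, with 4 of 5 lower. At an unadjusted p under 0.05, 0 of 5 differed, against 5.27% of all genes lower and 4.25% higher. The sterol carrier gene Scp2 differed by -0.54 ± 0.30 (SE), the acyl-CoA synthetase gene Acsl5 by -0.48 ± 0.28 and Dbi, which encodes an acyl-CoA binding protein, by -0.29 ± 0.25. Without Ifnar1-/- array 1 these were -0.20 for Scp2, -0.21 for Acsl5 and -0.065 for Dbi. Dbi, at 15.75 on both Ifnar1+/+ arrays, was brighter there than Apoa1, and whether its signal was saturated was not tested. Of 10 other genes of lipid re-esterification, 8 had a lower mean. Gpat3, which acylates glycerol phosphate, lay at 8.34 and 9.64 for Ifnar1-/-, against 10.25 and 10.64 for Ifnar1+/+, a difference of -1.46 ± 0.43. Agpat2, the enzyme gene of the following step, differed by -1.07 ± 0.40 and Lpcat3, which remodels phospholipids, by -0.95 ± 0.37. Leaving out Ifnar1-/- array 1 gave -0.81 for Gpat3, -0.46 for Agpat2 and -0.42 for Lpcat3. The fourth gene of this group with an unadjusted p under 0.05, named after its values were seen, was Lpin3, which encodes a phosphatidate phosphatase (-0.55 ± 0.22). Of the 10 re-esterification genes, 4 (40%) were lower at that p, against 5.27% of all genes.

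Of 8 lipid droplet and lipase genes, 6 had a lower mean and the median was -0.14. Cideb, a lipid droplet and lipoprotein lipidation factor, differed by -1.09 ± 0.40 (SE) and the droplet coat gene Plin2 by -0.62 ± 0.29. Plin2 was sensitive to the treatment of dim signals, with -0.25 when no background was removed. Hilpda, an inhibitor of the lipase encoded by Pnpla2, was the exception among the genes named by smallest p from these lists. It lay at 8.64 and 7.97 on the Ifnar1-/- arrays against 7.94 and 7.69 for Ifnar1+/+. With Ifnar1-/- array 1 left out, Cideb was at -0.52, Plin2 at -0.29 and Hilpda at 0.15.

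Among 8 further genes of lipoprotein assembly, 6 had a lower mean. Pla2g12b, a secreted phospholipase relative needed for normal lipoprotein secretion in mice, lay at 8.68 and 9.14 for Ifnar1-/-, against 9.69 and 9.92 for Ifnar1+/+. Its difference was -0.90 ± 0.26 (SE; limma, adjusted p = 0.492), and it kept a difference of -0.67 without Ifnar1-/- array 1. Apobec1, which edits the Apob messenger RNA to give the short intestinal form of apolipoprotein B, lay at 9.36 and 9.16 for Ifnar1-/-, against 9.79 and 9.87 for Ifnar1+/+. Here Ifnar1-/- array 2 was the lower of the pair, unlike for Mttp, Mogat2 and Dgat1. Tm6sf2, a membrane protein gene of lipoprotein lipidation, differed by -0.83 ± 0.40, but by -0.23 without Ifnar1-/- array 1.

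Of 11 genes of vesicle transport out of the endoplasmic reticulum, 9 had a lower mean, with a median of -0.16. Sec23a, a coat subunit gene of the vesicles that leave the endoplasmic reticulum, had the smallest unadjusted p of the 59 genes (0.00795). It lay at 6.94 and 7.53 for Ifnar1-/-, against 8.20 and 8.34 for Ifnar1+/+, a difference of -1.04 ± 0.28 (SE; limma, adjusted p = 0.492) that was -0.66 when no background was removed. The fusion protein gene Sec22b differed by -0.54 ± 0.24 and Sar1b, a GTPase gene whose loss in humans blocks chylomicron secretion, by -0.40 ± 0.24, the last being -0.24 without Ifnar1-/- array 1. Of 12 regulators, 9 had a lower mean and the median was -0.25. The bile acid receptor gene Nr1h4 differed by -0.86 ± 0.32, the oxysterol receptor gene Nr1h3 by -0.70 ± 0.30 and the coactivator gene Ppargc1a by -0.64 ± 0.28. Without Ifnar1-/- array 1, Nr1h3 was at -0.38 and Ppargc1a at -0.33, whereas Nr1h4 was at -1.15.

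**Figure D3:**
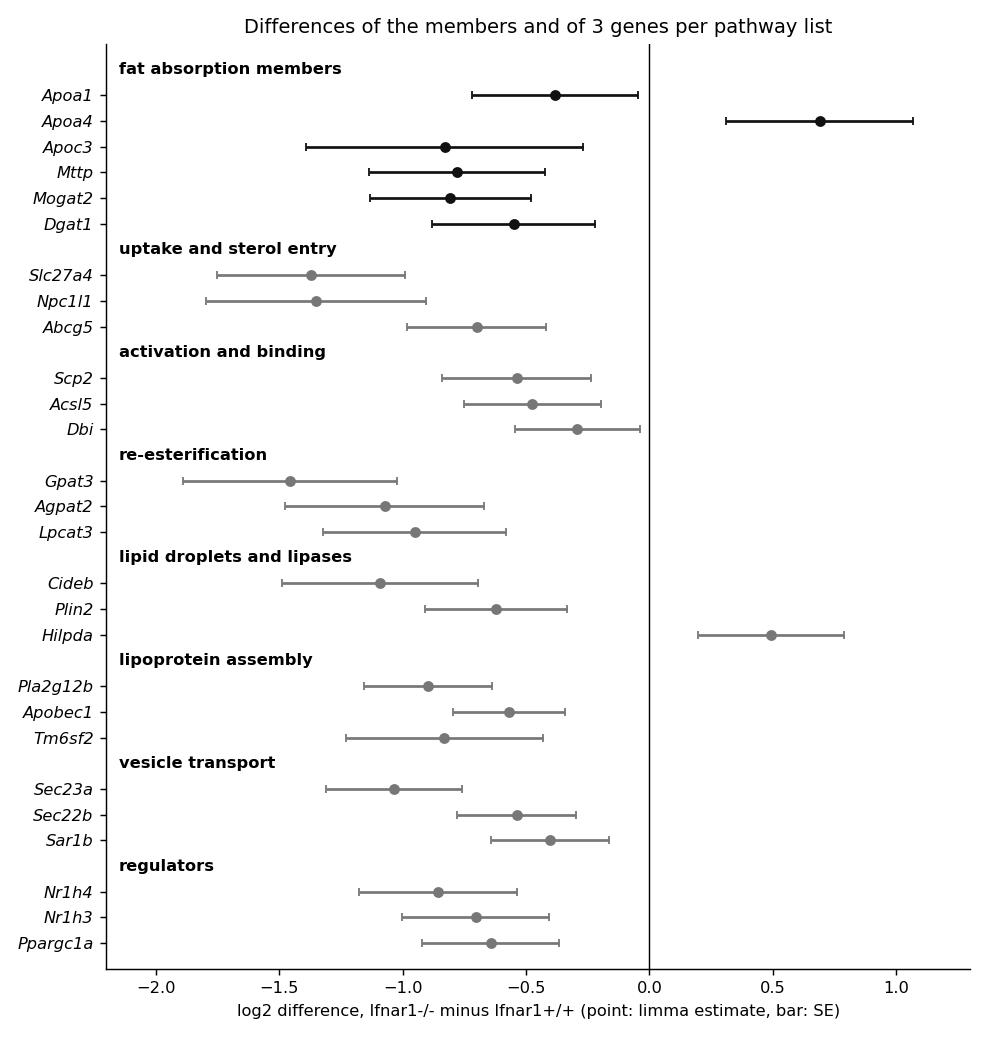
Log2 difference, Ifnar1-/- minus Ifnar1+/+, with its SE (limma, n = 2 per group) for the 6 measured genes (black) and, in each list of other fat absorption genes, the 3 with the smallest p (grey). Apoa4 (0.69) and Hilpda (0.49) lie right of 0 and the others left of it.

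Markers of the absorptive enterocyte outside fat handling also had lower means. All 15 tested had a lower mean in the Ifnar1-/- group, against 47.0% of all genes. Differences ran from -1.86 to -0.50, with a median of -0.87. At an unadjusted p under 0.05, 10 of the 15 (66.7%) were lower, against 5.27% of all genes. The peptidase gene Anpep differed by -1.86 ± 0.40 (SE). Ace, another peptidase gene, passed the filter through the Ifnar1+/+ arrays alone and has only a bound for Ifnar1-/-, where its signal was too dim. Without Ace, 14 of 14 markers had a lower mean, 9 had an unadjusted p under 0.05 and the median was -0.83. The summed linear signal of all 15 was 61880 and 113600 for Ifnar1-/-, against 151600 and 153400 for Ifnar1+/+. Their median level, relative to the mean of the Ifnar1+/+ arrays, was -1.34 on Ifnar1-/- array 1 and -0.49 on array 2. For the 6 fat absorption genes it was -1.09 on Ifnar1-/- array 1 and -0.038 on array 2. Every array was also centred on the mean of these 15 markers, Ace included, a choice made after the data were seen. The median difference of the 6 genes was then 0.30, 0 of 6 had a lower mean, and all genes tested shifted to a median of 0.99. This centring adds the same amount to the difference of every gene, so the count of 0 follows from that shift and is no separate result. The part of enterocyte content in the lower values was not tested.

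Apoa1 and Apoa4, at -0.38 and 0.69, lay above the whole range of the 15 enterocyte markers, whereas Dgat1, Mttp, Mogat2 and Apoc3 lay within it. Marker lists for position in the gut also differed between the 2 Ifnar1-/- arrays. Villus tip markers (7 genes) were at -1.14 on Ifnar1-/- array 1 and 0.48 on array 2, and proximal small intestine markers (4 genes) at -0.69 and 0.72. Distal markers (4 genes), led by the ileal bile acid binding gene Fabp6 and the bile acid exporter gene Slc51b, had a low median on both, at -1.70 and -0.86. Fgf15, named after its values were seen, was not low on Ifnar1-/- array 2, at 8.47 (log2) against 9.04 and 7.36 for Ifnar1+/+. The summed linear signal was 2876 and 7549 for Ifnar1-/-, against 6656 and 5999 for Ifnar1+/+, for villus tip markers. The proximal markers summed to 2013 and 4644 for Ifnar1-/-, against 3652 and 3387 for Ifnar1+/+. The distal markers summed to 6258 and 10110 for Ifnar1-/-, against 18210 and 19810 for Ifnar1+/+. Ifnar1-/- array 2, where Apoa4 was highest, was thus also highest for villus tip and proximal markers. The part of villus position and gut segment in the Apoa4 value was not tested.

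**Figure D4:**
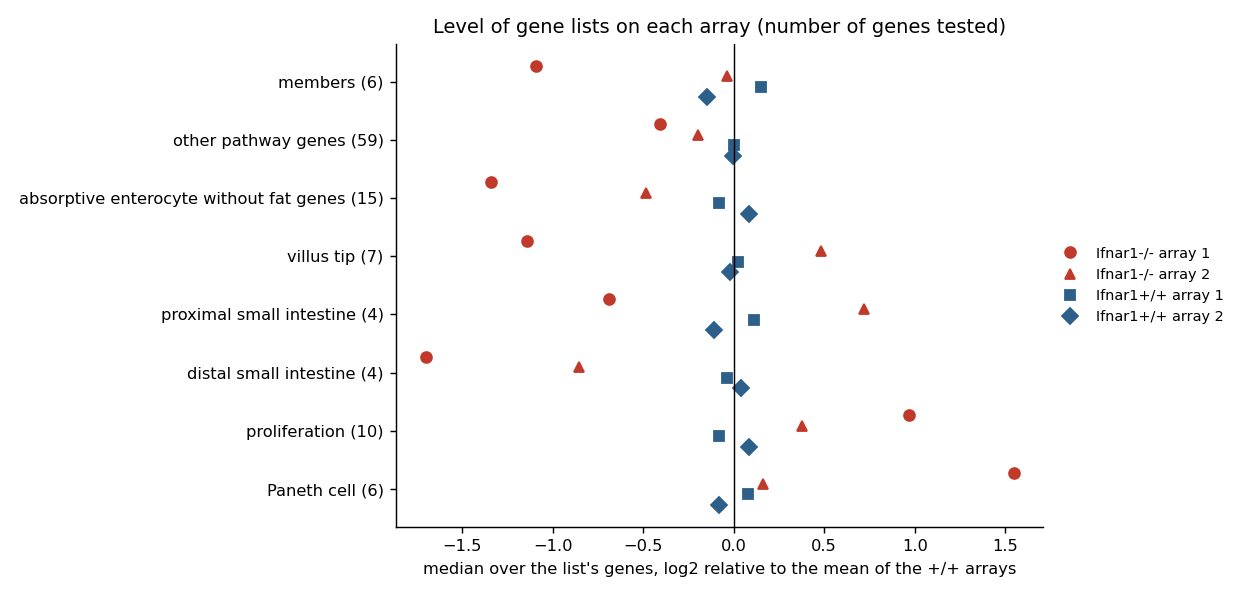
Median over each list's tested genes (number in brackets) on each array, as log2 intensity relative to the mean of the Ifnar1+/+ arrays. The 6 fat absorption genes are low on Ifnar1-/- array 1 (-1.09) and near 0 on array 2 (-0.038), while absorptive enterocyte and distal markers are below 0 on both Ifnar1-/- arrays.

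Lists of proliferation and Paneth cell genes had higher means, and the stem cell list was mixed. Over all genes tested, 4473 of 8442 had a higher mean. Proliferation markers (10 tested) had a higher mean in 10 of 10, with a summed linear signal of 13550 and 8882 for Ifnar1-/-, against 6373 and 7137 for Ifnar1+/+. Paneth cell markers (6 tested) had a higher mean in 6 of 6, with 116300 and 62240 for Ifnar1-/-, against 50420 and 40090 for Ifnar1+/+. Higher groups that did not overlap were found for 3 of these 6, against 2016 of 8442 genes. Lyz1, at 15.61 (log2) on Ifnar1-/- array 2, made up most of the sum there. On that array Defa21 (8.15) and Itln1 (11.85) lay below both Ifnar1+/+ arrays, and Defa22 (12.54) lay between them. These 3 are named after their values were seen. The array with the lowest fat absorption values, Ifnar1-/- array 1, had the highest sum for the proliferation and Paneth cell lists. Of 5 stem cell markers tested, 3 had a higher and 2 a lower mean, with a median difference of 0.09; Lgr5, too dim for Ifnar1+/+, has only a bound, and without it the median was 0.01. Their median level, relative to the mean of the Ifnar1+/+ arrays, was -0.22 on Ifnar1-/- array 1 and 0.38 on array 2. Their summed linear signal was 7762 and 7978, so array 1 was not the higher one for the list as a whole. Its genes went both ways. Olfm4, at 12.06 and 10.40 (log2), and Lgr5, at 6.91 and 5.44, were higher on array 1. The remaining markers tested were higher on array 2.

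Markers of other cells that express fat handling genes were mostly dim. Of the hepatocyte markers 0 of 7 with a probe were tested and 6 were detected on no array. Of the adipocyte markers 1 of 5 with a probe was tested. Macrophage markers (4 tested) summed to 682.3 and 789.6 for Ifnar1-/-, against 1383 and 1072 for Ifnar1+/+, and endothelial markers (6 tested) to 726.2 and 838.4 for Ifnar1-/-, against 512.1 and 450.7 for Ifnar1+/+. T cell markers (5 tested of 9 with a probe, 4 of the 9 detected on no array) summed to 235 and 406 for Ifnar1-/-, against 822.3 and 778.2 for Ifnar1+/+. Markers of pancreatic acinar cells (2 tested) summed to 2897 and 772.3 for Ifnar1-/-, against 581.8 and 576.4 for Ifnar1+/+. Fibroblast and smooth muscle markers (5 tested) summed to 736.8 and 499.1 for Ifnar1-/-, against 2809 and 750.9 for Ifnar1+/+. Of the 5 acinar markers with a probe, 3 were detected on no array. Among the acinar genes Clps, the colipase gene, was brightest on Ifnar1-/- array 1, at a log2 intensity of 11.48. The other tested acinar gene, Ctrb1, reached at most 5.51 on any array and had a lower mean for Ifnar1-/-. The acinar sum is thus nearly that of Clps alone. Cd3d (T cell), Vim (fibroblast) and Ctrb1 passed the filter through the Ifnar1+/+ arrays alone. Of the 6 endothelial markers, 1 passed through the Ifnar1-/- arrays alone. In the other group each of these genes has only a bound, yet its dim signal is part of the sums. The part of these cells in the values of the fat absorption genes was not tested.

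The 5 other genes whose values over the 4 arrays were nearest to the median profile of the 6 measured genes were Cyp4f13, Zbtb24, Ugt2a3, H2ac18 and Trmt1l. Likeness was the root mean square difference of centred log2 values, which was 0.03 to 0.04 for these genes. That median profile was -0.76 and 0.20 for Ifnar1-/-, against 0.32 and 0.21 for Ifnar1+/+.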

How the data were processed

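Signals of 4 single-colour Illumina arrays were used. The deposited raw intensity of a probe is its mean bead signal, written by GenomeStudio 1.8 (submitters' processing notes) without background subtraction or scaling. A deposited detection p-value ranks a probe's signal against the control beads on the same array. The deposited normalized intensity values run from 93.1 to 57820.3 on all arrays (medians 149.4 to 149.6), on a linear scale that still holds background; their scaling method is not named in the labels.

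Raw intensities were background corrected from the detection p-values, quantile normalized and converted to log2 with neqc in limma 3.58.1 (R 4.3.3, offset 16, which shrinks differences of dim genes). Probes with detection p under 0.05 on at least 2 arrays were kept (11884), and the brightest stood for each gene. The genotypes were compared in limma (lmFit, eBayes) over all 4 arrays without covariates (2 residual and 4.54 prior degrees of freedom), two-sided, with Benjamini-Hochberg adjustment over 8442 genes. Differences are Ifnar1-/- minus Ifnar1+/+. A run on simulated data, with the same spread in both groups, checked only that mean estimated differences lay near the simulated ones. It does not test the calls on these arrays. Between 11391 and 11954 probes were detected on the Ifnar1-/- arrays and between 11234 and 11700 on the Ifnar1+/+ arrays; the number of arrays limits the precision. Of the probes, 23978 had 1 gene symbol, 0 several and 1719 none.

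The genes and lists were chosen with earlier results of these data known, so counts and medians of lists are descriptions without a test. Named genes are the 10 genes, 3 of each pathway list by smallest p, up to 2 per marker list by smallest p, and the 5 nearest profiles, with exceptions marked. Alternatives covered background, offset, scaling, filters, probe choice, moderation, thresholds, the replicate number as a block and leaving out each array. Figures used matplotlib 3.10.9.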

Additional observations from a re-analysis of the deposited data

How the results depend on the processing

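Under the 9 other ways of processing that kept all arrays and used no marker centring, the 6 measured genes kept their direction, and none reached an adjusted p under 0.05 under these or with an array left out. The median of the 6 genes ranged from -1.09 to -0.038 with an array left out, and 3 to 5 of 6 had a lower mean; Apoa1 ranged from -0.79 to 0.026 and Apoc3 from -1.71 to 0.054, the highest values of both arising without Ifnar1-/- array 1. Other fat absorption genes had a median of -0.41 to -0.20 and 39 to 48 of 59 lower with an array left out, with 6 to 22 at an unadjusted p under 0.05. Their median was -0.16 both without background correction and with the deposited normalized values. Without a filter on dim probes, 8 of 9 genes had a lower mean, which adds the 3 genes at background. Over all genes, 0 passed at an adjusted p under 0.1 and 804 at an unadjusted p under 0.05, and 0 to 14 passed with an array left out (14 without Ifnar1+/+ array 2, 5 without Ifnar1+/+ array 1). A fit without 1 array has a lone array in 1 group and 1 residual degree of freedom, so the other group alone gives the spread and the lone array is assumed to vary like it. The unadjusted count of lower genes was 445, and 214 to 1126 with an array left out; among the 6 genes it was 0 to 5, the 5 arising without Ifnar1-/- array 2, and 2 with an intensity trend. Relative to the absorptive enterocyte markers, added after the data were seen, 28 genes passed, 0 of 6 and 6 of 59 genes were lower, and the medians were 0.30 and 0.66. There Apoa1 was at 0.58, Apoc3 at 0.14, Mttp at 0.19, Mogat2 at 0.16 and Dgat1 at 0.42, since the centring adds the same amount to every gene. The 28 genes were counted against a zero moved by that amount, so they are not read as a result. With the replicate number as a block, 0 genes passed, 5 of 6 and 46 of 59 were lower, the medians stayed at -0.67 and -0.30, and no call changed; deviations of same-numbered arrays correlated at -0.05 over genes, so the numbers were not taken to pair the arrays.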
